A study of Mus musculus with 7 samples.

Results

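The stretch of the mouse Igh locus described here lies 1 to 1.5 Mb upstream of VH81X, the V segment next to which the study altered a CTCF-binding element. Its members are the V segments joined to the JH4 bait in that stretch, found by pooling join positions of all 7 libraries on chromosome 12 between 115836378 and 116336377. Joins on the forward strand of the deposited tables were taken, positions with gaps of at most 300 bp were put together, and groups of 10 or more reads were kept as segments. Reads within 100 bp of 3 sites in the stretch belong to other segments and were left out. This gave 30 of the 158 V segments of the locus. With those sites out, the stretch held 19203 of 95203 V reads, of which 19145 lay in the 30 segments. The position and orientation of joins and the minimum of 10 pooled reads chose the members, without regard to genotype, and 22 smaller groups with 58 reads were not kept. The 3 sites were set apart with earlier results of these data known, which may include their reading frame.

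The study applied high-throughput genome-wide translocation sequencing (HTGTS), which reads the genomic DNA joined to a fixed bait end, to sorted bone marrow pro-B cells. The first group is VH81X-CBEscr/scr (n = 4 libraries) and the second is WT (n = 3 libraries). Mice of both groups were of the 129SVE background and 4 to 6 weeks old, the cells were sorted as B220+CD43highIgM-, and the bait was the coding end of JH4. CBE is short for CTCF-binding element in the title, and scr is not spelled out in the labels. The labels do not say whether the libraries came from separate mice, so p-values measure the spread between these libraries only.

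A heavy chain gene is assembled in pro-B cells when the RAG enzyme first joins a D to a JH segment and then joins a V segment to the DJH unit. The V segments lie upstream over a long stretch, and the D-near ones and the D-far ones reach the recombination centre by chromatin loop extrusion and locus contraction. CTCF-binding elements next to V segments slow or stop extruding chromatin, and VH81X, a D-near segment, is joined very often in normal pro-B cells. Most of the D-far V segments belong to the large VH1 (J558) family. A V join can be in or out of frame with JH, and pro-B cells hold both kinds, because a cell whose first allele failed can rearrange the other.

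The libraries held 31986 to 46915 reads and 10961 to 16874 V reads, of which 2324, 2295, 2650 and 3072 in VH81X-CBEscr/scr replicates 1 to 4 and 3461, 2501 and 2900 in WT replicates 1 to 3 lay in the stretch. VH81X itself had 46, 8, 14 and 26 reads in the VH81X-CBEscr/scr libraries and 1511, 1006 and 1508 reads in the WT libraries, so the groups are compared below with VH81X in and out of the denominator, and a share given once has VH81X in it. Reads marked as duplicates in the deposited tables were 53.7% to 76.0% of the reads in the stretch. WT replicate 2 had 3.22 reads per distinct join there, against 1.46 to 2.03 in the other libraries. At most 1 distinct join was shared by any 2 libraries, over 21 pairs. The libraries came from 4 sequencing runs by their read names, and 0 of the runs held both genotypes, so run and genotype cannot be told apart. With 0 reads, the upper limit of a segment's share was 0.0178% to 0.0274% of V reads by library (3 counts), and intervals and floors cover counting error only, because reads amplified by PCR are not independent molecules.

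Gene names could be given to part of the stretch. Counting from Ighv1-2 upstream, 15 of the 30 segments lay within 3 bp of the spacing that V segment ends have in a RefSeq gene table of another assembly (GRCm38.p6), and 12 of them lay at exactly that spacing. The other 15, all nearer to VH81X, lay over 60 bp from that spacing, the only one used for names in the stretch. They are called here by V and their most frequent join position. Positions are those of the deposited tables, whose reference the submitters' processing notes give as mm9. That reference was not checked against a genome, and the gene table describes another mouse strain than 129SVE. Prey sequences were compared with the consensus of each V segment, which was built from these same joins. Reads misplaced together would thus still match their own segment. The prey sequence matched its own segment best, among all V segments, for 93.2% of the distinct joins compared. That share was 18.8% for Ighv1-12, 38.9% for Ighv1-7, 46.7% for Ighv1-8, 56% for Ighv1-17, 68.4% for Ighv1-15, 71.0% for Ighv1-13 and 75.9% for V_116047837, so the counts of these segments are uncertain. It was 86.1% for Ighv1-18 and 88.1% for V_116065104, whose counts are less certain than those of the 21 segments over 90%.

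The ends of the 12 most used segments are printed here because the genotype comparison and the reading frame are read at these ends. Each is the consensus of the distinct reads of the deposited tables, 5′ to 3′ in the coding direction, which is the minus strand of chromosome 12 in the files' reference, and ends at the most frequent join position. Capitals mark the TGT codon of the conserved cysteine that ends framework 3, found by its motif of tyrosine and cysteine codons.
Ighv1-2, chr12:116097511-116097585: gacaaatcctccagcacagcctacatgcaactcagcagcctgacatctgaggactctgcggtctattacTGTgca
Ighv1-4, chr12:116115569-116115643: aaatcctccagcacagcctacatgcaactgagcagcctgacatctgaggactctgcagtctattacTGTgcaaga
Ighv1-5, chr12:116141763-116141837: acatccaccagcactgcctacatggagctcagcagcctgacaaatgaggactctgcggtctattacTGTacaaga
Ighv1-9, chr12:116212002-116212076: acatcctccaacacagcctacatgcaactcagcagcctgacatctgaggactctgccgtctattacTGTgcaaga
Ighv1-14, chr12:116275005-116275079: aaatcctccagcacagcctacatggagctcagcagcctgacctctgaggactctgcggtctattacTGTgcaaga
Ighv1-18, chr12:116311065-116311139: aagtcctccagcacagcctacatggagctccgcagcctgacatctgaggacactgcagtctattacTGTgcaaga
Ighv15-2, chr12:116193011-116193085: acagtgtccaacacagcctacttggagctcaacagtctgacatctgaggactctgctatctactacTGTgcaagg
Ighv10-1, chr12:116107438-116107512: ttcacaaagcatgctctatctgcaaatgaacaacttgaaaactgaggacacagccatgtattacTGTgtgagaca
Ighv10-3, chr12:116151874-116151948: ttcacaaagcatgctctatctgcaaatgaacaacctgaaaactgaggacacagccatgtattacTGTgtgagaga
V_115918938, chr12:115918938-115919012: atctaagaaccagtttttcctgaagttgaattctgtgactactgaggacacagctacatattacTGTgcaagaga
V_116065104, chr12:116065104-116065178: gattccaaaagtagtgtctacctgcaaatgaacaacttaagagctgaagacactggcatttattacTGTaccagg
V_116081018, chr12:116081018-116081092: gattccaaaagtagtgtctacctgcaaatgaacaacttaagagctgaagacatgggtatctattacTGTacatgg

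By their last 120 bases, segments were grouped where they were at least 80% identical to another, which gave 4 groups and left 4 segments alone. This threshold was chosen after the data were seen. All 12 VH1 segments formed 1 group with 47.6% of the reads in the stretch. Ighv10-1 and Ighv10-3, the 2 members of the VH10 family here, were 97.5% identical and took 8.25%, and Ighv15-2 stood alone with 9.54%. Among the segments without a name, a group of 7 that includes V_116065104 and V_116081018 took 18.0%, and a group of 5 that includes V_115918938 took 12.1%.

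A pair of members of low use lacked the cysteine motif, and they are shown because the capitals differ from the ends above. They were singled out after their values were seen. In both, capitals mark the 3 bases that follow the tyrosine codons, at the place of TGT.
V_115876812, chr12:115876812-115876886: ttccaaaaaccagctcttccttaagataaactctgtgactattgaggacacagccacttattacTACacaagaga
V_115902332, chr12:115902332-115902406: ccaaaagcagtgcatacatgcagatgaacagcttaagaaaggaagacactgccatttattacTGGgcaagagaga
These segments had 21 and 10 distinct joins, of which 5 and 2 were in frame. A further segment, V_116079192, with 10 reads, had no such motif and no reading frame. Its end was at most 52.5% identical to that of any other segment, so it is called a V segment by its position only.

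Use was concentrated in a few members. The 12 most used segments took 83.2% of the reads in the stretch and the top 5 took 45.4%, while 14 segments had under 1% each and 978 reads in all. Ighv1-2, which the gene table lists as a pseudogene, ranked first, with 1.83%, 2.02%, 1.89% and 1.81% of V reads in the VH81X-CBEscr/scr libraries and 1.71%, 2.17% and 2.22% in the WT libraries. Ighv15-2, a V segment outside the VH1 family, followed with 2.01%, 1.71%, 1.92% and 1.71% in VH81X-CBEscr/scr and 1.89%, 2.72% and 1.71% in WT. WT replicate 2 was the highest library for Ighv15-2, and the 2 groups overlapped for both segments. V_116065104, 1229 kb upstream of VH81X, had 1.99%, 1.72%, 1.87% and 2.11% in VH81X-CBEscr/scr and 1.97%, 2.22% and 1.67% in WT. These 3 segments stood at ranks 8 to 10 among the 158 V segments and did not differ from each other beyond their spread.

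The next members were Ighv1-5, a VH1 segment, and V_115918938, 1083 kb upstream. Ighv1-5 had 1.29%, 1.86%, 1.79% and 1.83% in VH81X-CBEscr/scr and 1.52%, 2.19% and 1.89% in WT. V_115918938 had 1.62%, 1.41%, 1.60% and 1.72% in VH81X-CBEscr/scr and 1.90%, 1.31% and 1.54% in WT. The groups overlapped for both, and replicate 1 of VH81X-CBEscr/scr was low for Ighv1-5. Ighv1-9, Ighv1-14, Ighv1-4, Ighv1-18, Ighv10-3, Ighv10-1 and V_116081018, 1245 kb upstream, averaged 1.58%, 1.45%, 1.22%, 0.925%, 0.874%, 0.796% and 0.780% over the 7 libraries. Out of V reads without VH81X, Ighv1-2 averaged 1.89% ± 0.0925 in VH81X-CBEscr/scr and 2.25% ± 0.321 in WT, and Ighv15-2 averaged 1.84% ± 0.154 in VH81X-CBEscr/scr and 2.33% ± 0.585 in WT (SD, n = 4 and 3). In that denominator the mean was lower in VH81X-CBEscr/scr for each of the 12 most used segments, and the groups overlapped for all but Ighv1-9 and Ighv1-18. Of the 129 V segments of the locus tested below, 90 had a negative log2 fold change with VH81X out. For 6.98% of the 129, the groups did not overlap, with VH81X-CBEscr/scr lower.

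**Figure D1:**
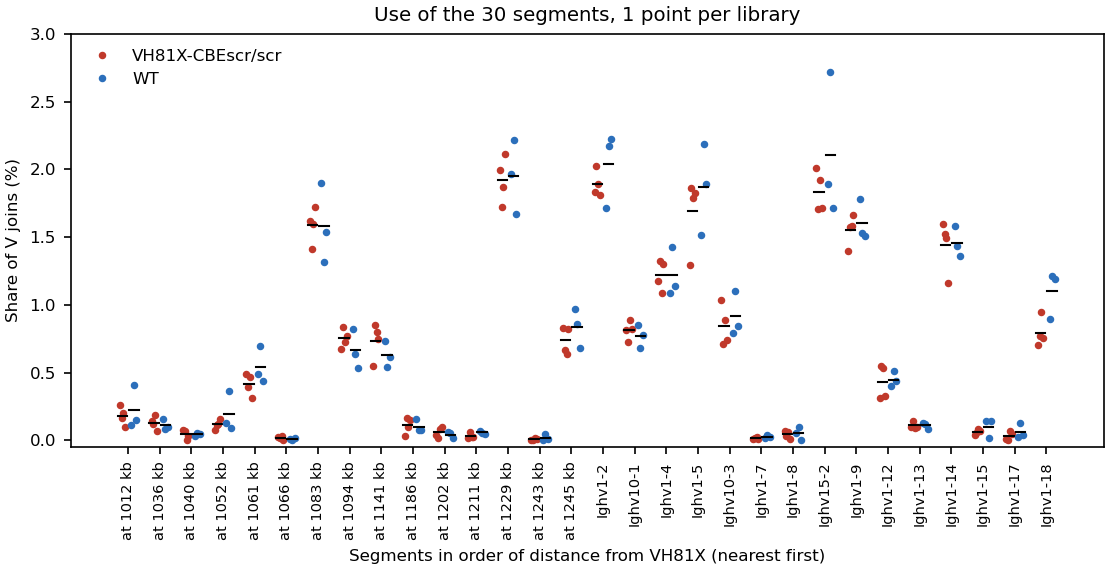
Share of V reads (%, y axis) of each of the 30 segments in order of distance from VH81X (x axis), with 1 point per library, VH81X-CBEscr/scr left and WT right, and a bar at the group mean. Segments without a name are marked by their distance in kb; the points of both groups overlap for each of the 12 most used segments.

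The order of use was much the same in every library. Over the 30 segments, the shares of any 2 libraries had a Spearman correlation of 0.917 to 0.965 (21 pairs), which is a description across segments that share libraries and depth. Among the members, use did not fall evenly with distance. Reads of the 3 left-out sites are not in the bins below. These sites lie from 1100 to 1200 kb, 1200 to 1300 kb and 1400 to 1500 kb. The shares of those bins thus do not count all V reads there. The 100 kb bins from 1200 to 1300 kb and from 1300 to 1400 kb held 6.70% ± 0.228 and 6.01% ± 0.190 of V reads in VH81X-CBEscr/scr libraries. In WT libraries they held 6.94% ± 0.501 and 6.58% ± 0.957 (SD, n = 4 and 3). The bin from 1100 to 1200 kb held 0.848% ± 0.186 in VH81X-CBEscr/scr and 0.728% ± 0.144 in WT, with 2 segments in it. The groups overlapped in these 3 bins. Out of V reads without VH81X, the bin from 1200 to 1300 kb held 6.71% ± 0.231 in VH81X-CBEscr/scr and 7.66% ± 0.530 in WT, a log2 difference of -0.19, and the bin from 1300 to 1400 kb held 6.02% ± 0.187 in VH81X-CBEscr/scr and 7.26% ± 1.04 in WT, a log2 difference of -0.26. The bin from 1400 to 1500 kb then held 2.90% ± 0.350 in VH81X-CBEscr/scr and 3.66% ± 0.157 in WT, a log2 difference of -0.34. In these 3 of the 5 bins every VH81X-CBEscr/scr library lay below every WT library. The groups overlapped in the other bins. The bin from 1000 to 1100 kb held 3.26% ± 0.120 in VH81X-CBEscr/scr and 3.73% ± 0.408 in WT, a log2 difference of -0.19. The bin from 1100 to 1200 kb held 0.850% ± 0.185 and 0.804% ± 0.156, a log2 difference of 0.07. From 1300 to 1400 kb, WT replicate 2 was the highest library, at 8.46% against 6.67% and 6.66% in WT replicates 1 and 3. The bins were not tested. The share of a segment's reads at its most frequent position was 19.2% (V_116038148) to 84.2% (Ighv1-7), and among the 12 most used it was 28.7% (Ighv10-1) to 69.6% (Ighv1-18).

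Without the reads of its 3 left-out sites, which stay in the denominator, the stretch held 19.3%, 19.7%, 20.3% and 19.5% of V reads in VH81X-CBEscr/scr replicates 1 to 4. In WT replicates 1 to 3 it held 20.5%, 22.8% and 19.5%. The groups overlapped, with means of 19.7% ± 0.440 and 20.9% ± 1.71 (SD, n = 4 and 3), a log2 difference of -0.08, and an exact two-sided permutation test over the 35 splits gave p = 0.229 (adjusted p = 0.343 over the 6 distance windows). With VH81X out of the denominator, the shares were 19.4%, 19.7%, 20.3% and 19.6% in VH81X-CBEscr/scr and 22.5%, 25.1% and 21.7% in WT, without overlap. Their means were 19.7% ± 0.423 and 23.1% ± 1.80, a log2 difference of -0.22 (exact permutation p = 0.0286, adjusted p = 0.0571). That p is the smallest that 35 splits can give. The adjusted p was therefore set by how many of the 6 windows reached it. It lay above the threshold of 0.05, but the stretch's own values could not have brought it lower. Counting only reads not marked as duplicates, the log2 difference was -0.07 with p = 0.143 by the same exact test. The stretch was not alone in this. Without VH81X, the 1.5 to 2.1 Mb window held 9.22% ± 0.278 in VH81X-CBEscr/scr and 10.8% ± 0.653 in WT, also without overlap. Its log2 difference was -0.23 (exact permutation p = 0.0286, adjusted p = 0.0571). The 500 kb to 1 Mb window overlapped in both denominators, at log2 0.11 with VH81X in and -0.03 with VH81X out. Both neighbouring windows were counted whole, so the size of their shares is not like for like with that of the stretch.

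**Figure D2:**
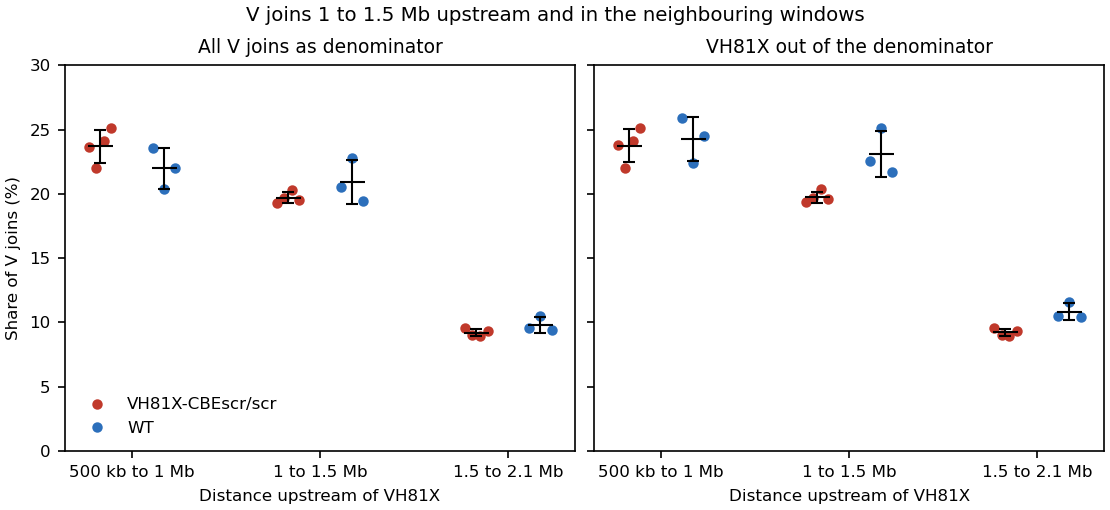
Share of V reads (%, y axis) in 3 distance windows upstream of VH81X, per library (points) with group mean and SD (bars), VH81X-CBEscr/scr left of WT, with all V reads (left panel) or V reads without VH81X (right panel) as denominator. In the 1 to 1.5 Mb window the libraries overlap in the left panel and VH81X-CBEscr/scr lies at 19.4% to 20.3% against 21.7% to 25.1% in WT in the right one. The groups of the 1.5 to 2.1 Mb window also overlap in the left panel and not in the right one. Reads of the 3 left-out sites are not counted in the 1 to 1.5 Mb window.

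Set against the next window on either side, the stretch did not pass the test. The ratio of its reads to those 500 kb to 1 Mb upstream was 0.815, 0.894, 0.843 and 0.779 in VH81X-CBEscr/scr and 0.871, 1.12 and 0.885 in WT, a log2 difference of -0.19 (exact permutation p = 0.114, adjusted p = 0.229 over the 2 ratios). The ratio to the window 1.5 to 2.1 Mb upstream averaged 2.14 ± 0.105 in VH81X-CBEscr/scr and 2.13 ± 0.0486 in WT (SD, n = 4 and 3, exact permutation p = 0.914). The groups overlapped in both ratios. The stretch was counted here without its 3 left-out sites and the neighbouring windows were counted whole. The ratios are thus not like for like as measures of use. The first ratio's log2 difference was -0.077 without WT replicate 2, -0.090 with distinct joins and -0.097 with reads not marked as duplicates.

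Segment by segment, limma-voom was fitted to all 129 V segments with enough reads, of which 22 of the 30 members were tested. The other 8 members averaged under 10 reads in both groups. None of the 22 passed an adjusted p of 0.05, with V reads as the library size (4.65% of the 129 passed) or with VH81X out of it (2.33% of the 129 passed), and 1 of the 22 reached an unadjusted p under 0.05 in each. The log2 fold changes of VH81X-CBEscr/scr over WT had a median of -0.07 over the 22, beside -0.04 over all 129, and 14 of 22 were negative, beside 72 of 129. With VH81X out of the library size the median was -0.21, beside -0.18 over all 129, and 20 of 22 were negative, beside 90 of 129.

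The lowest estimate was that of Ighv1-18, the VH1 segment farthest from VH81X in the stretch. It had 0.706%, 0.771%, 0.943% and 0.757% of V reads in the VH81X-CBEscr/scr libraries and 0.895%, 1.21% and 1.19% in the WT libraries. The third VH81X-CBEscr/scr library lay above the first WT library, so the groups overlapped, and the log2 fold change was -0.44 (SE 0.208, limma adjusted p = 0.273). With VH81X out of the denominator its shares were 0.708%, 0.772%, 0.944% and 0.758% in VH81X-CBEscr/scr and 0.983%, 1.34% and 1.32% in WT, without overlap, and the log2 fold change was -0.58 (SE 0.206, limma adjusted p = 0.0903). Without WT replicate 1 that value was -0.75 with a limma adjusted p of 0.0194, so this call turned on 1 library. Counting distinct joins in place of reads, the log2 fold change was -0.12 (limma adjusted p = 0.977), and -0.24 with VH81X out (limma adjusted p = 0.561). Counting only reads not marked as duplicates, it was -0.11 (limma adjusted p = 0.963), and -0.17 with VH81X out (limma adjusted p = 0.985). The prey sequences of Ighv1-18 matched it best for 86.1% of the joins compared.

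With VH81X out of the denominator, the groups did not overlap, with VH81X-CBEscr/scr lower, for 2 of the 22 tested members, beside 6.98% of all 129 segments. With VH81X in the denominator this held for 0 of the 22, beside 1.55% of the 129. The 2 were Ighv1-18 and Ighv1-9. Ighv1-9 had 1.40%, 1.58%, 1.58% and 1.66% in VH81X-CBEscr/scr and 1.96%, 1.69% and 1.67% in WT, with the highest VH81X-CBEscr/scr library close below the lowest WT library (log2 fold change -0.19, SE 0.175, limma adjusted p = 0.582).

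The other extremes of the fit had wide errors. After Ighv1-18, the most negative log2 fold changes were those of Ighv1-15 at -0.42 (SE 0.525) and V_115888313, 1052 kb upstream, at -0.37 (SE 0.426). Ighv1-15 had 0.0415% to 0.0844% of V reads in VH81X-CBEscr/scr and 0.142%, 0.0182% and 0.141% in WT, so WT replicate 2 was the lowest library of all, and its prey sequences matched it best for 68.4% of the joins compared. V_115888313 had 0.0747% to 0.159% in VH81X-CBEscr/scr and 0.124%, 0.365% and 0.0873% in WT, so WT replicate 2 was the highest. The most positive were V_115977395, 1141 kb upstream, at 0.20 (SE 0.232), V_115930750, 1094 kb upstream, at 0.19 (SE 0.229), and V_115872075, 1036 kb upstream, at 0.08 (SE 0.447). The limma adjusted p of these 5 segments was 0.906 to 0.974.

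**Figure D3:**
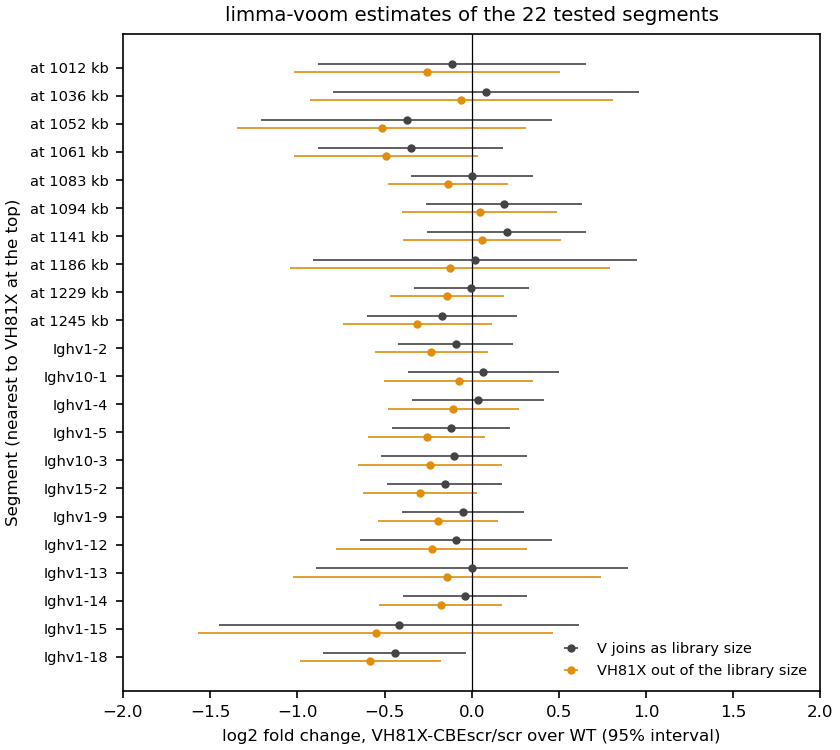
limma log2 fold change of VH81X-CBEscr/scr over WT (x axis) with its 95% interval for the 22 tested segments, nearest to VH81X at the top, with V reads as library size (dark) and with VH81X out of it (orange). The interval of Ighv1-18 lies below 0 in both, and every adjusted p is above 0.05.

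The reading frame differed widely between members. A join was called in frame when the distance from the cysteine codon of V to the tryptophan codon of JH was a multiple of 3, and distinct joins were counted so that amplified reads count once. A join of random length is in frame 1 time in 3. Of 22 members with 50 or more such joins, 11 were in frame for over 60% of them, 8 for 40% to 60% and 3 for under 40%. The 3 left-out sites are not in these counts, and they lower the in-frame share of the stretch. Its difference from the same other V joins was 2.23 points without these sites and -1.91 points with them. Ighv1-4, Ighv1-9 and V_116065104 had the highest shares, at 68.5% (95% Wilson interval 64.8% to 72.0%), 68.4% (65.1% to 71.5%) and 68.0% (65.0% to 70.8%).

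The 3 lowest of these 22 members were all without a name and near the VH81X end of the stretch. V_115888313 had 17 of 57 joins in frame, 29.8% (95% Wilson interval 19.5% to 42.7%), V_115872075 had 23 of 64, 35.9% (25.3% to 48.2%), and V_115848441, 1012 kb upstream, had 29 of 77, 37.7% (27.7% to 48.8%). All 3 intervals contain 1 in 3. By genotype, V_115888313 was in frame for 32.1% in VH81X-CBEscr/scr and 27.6% in WT, V_115872075 for 35.3% and 36.7%, and V_115848441 for 46.2% and 28.9%. Of the in-frame joins of these segments, 52.9%, 47.8% and 48.3% had no stop codon between the cysteine and tryptophan codons, against 91.3% for Ighv1-4 and 91.7% for Ighv1-9. Over the 22 members, the in-frame share and the stop-free share had a Spearman correlation of 0.84, a description across segments whose joins come from the same libraries.

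High use did not go with a high in-frame share in every member. Ighv1-2, the listed pseudogene, was in frame for 53.0% (95% Wilson interval 49.8% to 56.1%) and Ighv15-2 for 46.0% (42.8% to 49.2%), both under the 67.6% of Ighv1-5. Ighv10-1 and Ighv10-3, whose ends printed above are nearly alike, were singled out after their values were seen. Ighv10-1 was in frame for 52.7%, 64.0%, 52.9% and 57.6% in VH81X-CBEscr/scr and 73.9%, 56.8% and 62.4% in WT. Ighv10-3 was in frame for 40.7%, 31.6%, 41.5% and 44.1% in VH81X-CBEscr/scr and 45.7%, 39.0% and 40.2% in WT. The share of Ighv10-1 was the higher one in every library, on 37 to 111 joins per library.

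**Figure D4:**
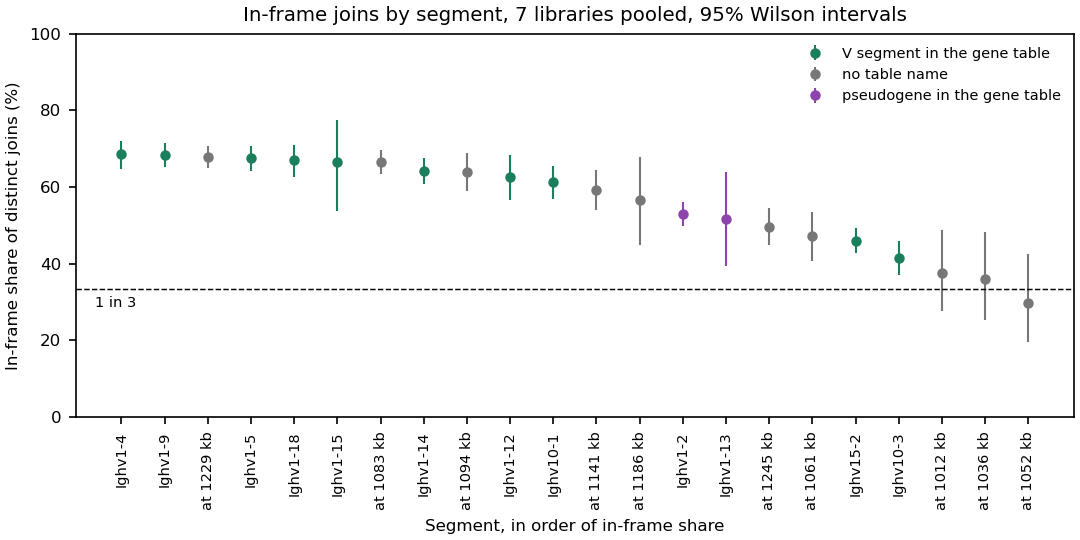
In-frame share of distinct joins (%, y axis) of the 22 segments with 50 or more joins, in descending order, with 95% Wilson intervals over the 7 pooled libraries and a dashed line at 1 in 3. Colours give the segment type in the gene table; the intervals of the 3 lowest segments cross the dashed line.

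Joins in the stretch were in frame for 56.8%, 61.6%, 58.7% and 61.9% in VH81X-CBEscr/scr and 61.0%, 57.0% and 59.5% in WT. The groups overlapped, with means of 59.8% ± 2.45 and 59.2% ± 2.02 (SD, n = 4 and 3, exact permutation p = 0.8). Among the other V joins of the same libraries, VH81X left out, the share was 49.8%, 55.3%, 56.1% and 58.4% in VH81X-CBEscr/scr and 60.6%, 55.6% and 56.8% in WT, below that of the stretch in each library. The mean difference was 3.43 percentage points, with the 3 left-out sites counted among the other V joins. It was -1.91 points with these sites counted in the stretch and 2.23 points with them on neither side. Its sign thus rests on the choice of members, and it is given as a description with no test. The windows on either side were in frame for 63.3% (500 kb to 1 Mb) and 59.4% (1.5 to 2.1 Mb) on average. No sites were left out of these windows, so their shares are not like for like with that of the stretch.

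**Figure D5:**
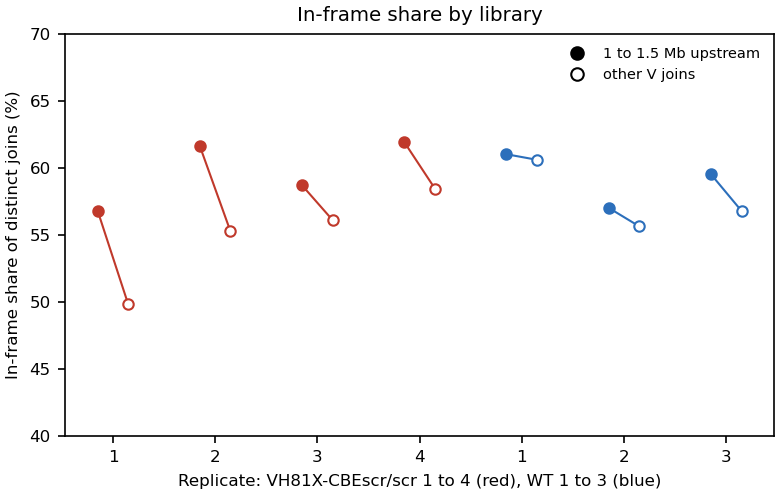
In-frame share of distinct joins (%, y axis, from 40%) in the stretch (filled) and among the other V joins (open) of each library, VH81X-CBEscr/scr replicates in red and WT replicates in blue. The filled point lies above the open one in all 7 libraries, with the 3 left-out sites among the other V joins.

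Joint length did not differ between the genotypes beyond the spread of the libraries. Between the last aligned V base and the first aligned JH base lay 17.1, 17.1, 17.2 and 16.9 nt on average in VH81X-CBEscr/scr and 17.2, 17.3 and 17.0 nt in WT, a stretch that holds the D segment and added bases. The means were 17.1 ± 0.143 nt and 17.2 ± 0.123 nt (SD, n = 4 and 3, exact permutation p = 0.343). Joins in the opposite orientation, which the choice of members did not use, made up 0.514%, 0.434%, 0.413% and 0.260% of the reads on either strand in VH81X-CBEscr/scr and 0.403%, 0.0799% and 0.549% in WT, on 2 to 16 reads per library. The groups overlapped (exact permutation p = 0.686), and at this depth a difference smaller than that spread was not detectable.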

How the data were processed

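Reads of 7 HTGTS libraries were analysed from the deposited tables, in which the authors list 1 junction per line with its position, strand, bait and prey alignment and read sequence. No deposited column holds a read count, so each line was counted as 1 read. Bowtie2 and mm9 were used, per the submitters' processing notes; versions and filters are not given in the sources used here. The members, lists and tests were chosen with earlier results of these data known.

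Distinct joins are unique combinations of junction position, bait end and bases between. Shares were tested by exact permutation of the 7 libraries. A planned sign-flip test of the in-frame share against other V joins is not reported, because its sign depends on which sites count as members. Segments were tested with limma 3.58.1 (voom, R 4.3.3), run on simulated data first, after a minimum mean of 10 lines in either group, with Benjamini-Hochberg adjustment over 129 segments. Named segments are the 12 most used, any called, the 3 highest and 3 lowest log2 fold changes and the 3 highest and 3 lowest in-frame shares among segments with 50 or more distinct joins; a few others are named as chosen after their values were seen. Other tools were Python 3.11.15, pandas 2.3.3, Biopython 1.88 and edlib 1.3.9.post1. Alternatives changed the reads counted, the gap, the filter, the normalization, the test, the libraries and the replicate block.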

Additional observations from a re-analysis of the deposited data

Results flagged for a closer look

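The share of V reads of Ighv1-5 in VH81X-CBEscr/scr replicate 1 was 1.29%, apart from the other VH81X-CBEscr/scr libraries at 1.79% to 1.86%, by Dixon's gap over range. Of 25 sets of 4 libraries examined this way, 1 stood out, and chance alone marks about 1 in 20.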

How the results depend on the processing

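Under each of their 13 alternatives, the share of V reads in the stretch kept its sign, at log2 -0.13 to -0.00088 with VH81X in the denominator and -0.27 to -0.07 with VH81X out. The adjusted p stayed above 0.05, but part of these tests could not have passed. With all 7 libraries, the exact p can go no lower than 0.0286, so its adjustment over 6 windows depends on the other windows too. The exact test can give no p below 0.1 without a VH81X-CBEscr/scr library, or below 0.0667 without a WT library. The replicate block could not reach 0.05 either, so for these alternatives only the size of the difference is informative. The in-frame difference from other V joins, 3.43 points, was -1.91 with the 3 left-out sites in the stretch and 2.23 with them on neither side, both alternatives chosen after seeing the data. With a library left out, the ratio to the 500 kb to 1 Mb window lay between -0.26 and -0.077 (log2), the ratio to the 1.5 to 2.1 Mb window lay between -0.021 and 0.034 (log2), the in-frame difference between genotypes between -0.51 and 1.56 points, and the opposite orientation difference between -0.071 and 0.16 points. The number of members called was 0 under every other alternative and 0 to 1 with a library left out (VH81X out of the library size, Ighv1-18 without WT replicate 1). Same-numbered libraries of the 2 groups correlated at -0.27, -0.0027 and 0.11, so the numbers do not pair them. With the replicate block the in-frame difference was -0.14 points, no member was called, and the block could not be applied to the within-library frame comparison.

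The estimates of the 18 named segments, none of them called, kept their sign in 234 of 283 alternatives with V reads as library size and in 262 of 283 with VH81X out. With V reads as library size, the sign turned with distinct joins to 0.062 for V_116065104, 0.093 for Ighv1-5, -0.0065 for V_115918938, 0.069 for Ighv1-14, -0.048 for Ighv1-4, 0.0073 for Ighv10-3, -0.040 for Ighv10-1, -0.033 for V_115872075 and 0.086 for V_115848441. With reads not marked duplicate it turned to 0.077 for Ighv1-2, 0.041 for Ighv15-2, 0.14 for V_116065104, 0.043 for Ighv1-5, -0.032 for V_115918938, 0.050 for Ighv1-14, -0.054 for Ighv1-4, 0.12 for Ighv10-3, -0.041 for Ighv10-1 and -0.032 for V_115872075. A minimum mean of 30 lines gave 4.04e-05 for V_116065104 and -0.00079 for V_115918938, and median-of-ratios size factors gave 0.0028 for V_116065104. The replicate block gave -0.037 for V_115918938, 0.076 for Ighv1-14, -0.018 for Ighv1-4 and 0.081 for V_115848441. With a library left out, values ran from -0.29 to 0.018 for Ighv15-2, -0.11 to 0.085 for V_116065104, -0.11 to 0.15 for V_115918938, -0.10 to 0.034 for Ighv1-9, -0.094 to 0.072 for Ighv1-14, -0.047 to 0.14 for Ighv1-4, -0.20 to 0.024 for Ighv10-3, -0.0066 to 0.14 for Ighv10-1, -1.18 to 0.0033 for Ighv1-15, -0.78 to 0.13 for V_115888313, -0.14 to 0.37 for V_115872075 and -0.49 to 0.36 for V_115848441. With VH81X out of the library size, reads not marked duplicate gave 0.010 for Ighv1-2, 0.071 for V_116065104, 0.055 for Ighv10-3 and -0.034 for V_115930750. Median-of-ratios size factors gave 0.0028 for V_116065104, 0.013 for V_115918938, 0.038 for Ighv1-4, 0.072 for Ighv10-1 and 0.086 for V_115872075, limma on log2 share gave 0.0022 for V_115872075 and the replicate block gave 0.23 for V_115872075. With a library left out, values ran from -0.25 to 0.0062 for V_115918938, -0.15 to 0.00055 for Ighv10-1, -0.28 to 0.23 for V_115872075, -0.11 to 0.23 for V_115930750, -0.027 to 0.19 for V_115977395 and -0.64 to 0.22 for V_115848441. Depth limits the members under 1% of the reads in the stretch.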
